A study of Drosophila melanogaster with 6 samples.

Results

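The 10 maltase genes of the Mal-A and Mal-B clusters were followed in whole male flies kept on glucose-supplemented food (GSF) or on unmodified holidic food (HF). They were found by gene symbol, and all 10 had a row among the 17737 FlyBase genes counted in each library. Holidic food is a chemically defined medium, and GSF is the same medium with 50 g/L of added glucose. The flies of both diets were w1118 males that developed on cornmeal food and then spent the first 20 days of adult life on GSF or HF at 25°C. RNA was sequenced from 3 GSF libraries and 3 HF libraries of 5 whole flies each, with between 51826530 and 66493536 counts per library. Since whole flies were used, fewer cells of a type and less RNA per cell cannot be told apart. The labels do not say whether the 3 libraries of a diet came from separately reared cultures, so p-values measure the spread between these libraries.

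Maltases are alpha-glucosidases, enzymes that split maltose and related alpha-linked sugars into single sugars, with glucose as the main product. In insects they act after amylase, which cuts starch into maltose, and many of them also split sucrose. The midgut is the main site of carbohydrate digestion in the fly, and digestive carbohydrases of insects are known to be made in smaller amounts when free glucose is plentiful. Mal-A1, Mal-A2 and Mal-A3 were first known as the larval visceral protein genes LvpH, LvpD and LvpL.

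The Mal-A cluster holds 8 members within 24298 bp of chromosome 2R (8449664 to 8473961 in the Ensembl annotation of assembly BDGP6). The Mal-B cluster holds 2 members within 5656 bp of chromosome 2L (11847226 to 11852881), inside the span of Pde1c, a phosphodiesterase gene on the other strand whose exons they do not touch. Of the Mal-A genes, 5 are transcribed from the plus strand and 3 (Mal-A1, Mal-A3 and Mal-A7) from the minus strand. Mal-A1 and Mal-A2, Mal-A3 and Mal-A4, and Mal-A7 and Mal-A8 lie head to head, with 1722, 922 and 290 bp between them. Mal-A5 and Mal-A6 follow each other on the same strand only 65 bp apart. Their longest coding lengths are alike, between 1701 bp in Mal-A2 and 1890 bp in Mal-A5. Only Mal-A1 and Mal-A8 share exon sequence with another gene, Mal-A1 over 82 of its 1826 exonic bp with Cyp4e1 and Mal-A8 over 6 bp with mtt. Both of these partners are on the other strand, and no strand setting is given for the counting, so reads of the shared stretches cannot be assigned. How alike the 10 coding sequences are was not analysed here, and reads that fit more than 1 member could have been split between them.

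All 10 maltase genes had a lower estimated level in GSF-fed flies, as had 47.7% of all genes tested. Of the 10, 8 fell past the threshold of the study's methods (p under 0.01 and an FDR under 0.05 in edgeR). The same test called 3.14% of the 13373 genes tested lower on GSF, and 5.14% in either direction. Mal-A1, Mal-A2, Mal-A3, Mal-A4, Mal-A6, Mal-A7, Mal-A8 and Mal-B2 fell, to between 36.3% and 70.5% of the HF level, while Mal-A5 and Mal-B1 did not pass. No member was called higher by this test, by DESeq2 or by edgeR's likelihood ratio and exact tests, and none was higher at a p under 0.05 before adjustment. The 10 genes had a median log2 fold change of -0.68, against 0.01 over all genes tested. In 9 of the 10, all but Mal-B1, every GSF library lay below every HF library, which was the case for 12.9% of all genes tested (12.3% had every GSF library above every HF library). All 10 members were above 1 CPM (counts scaled to the library size) in all 6 libraries, so none was tested only because it was high on HF.

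**Figure D1:**
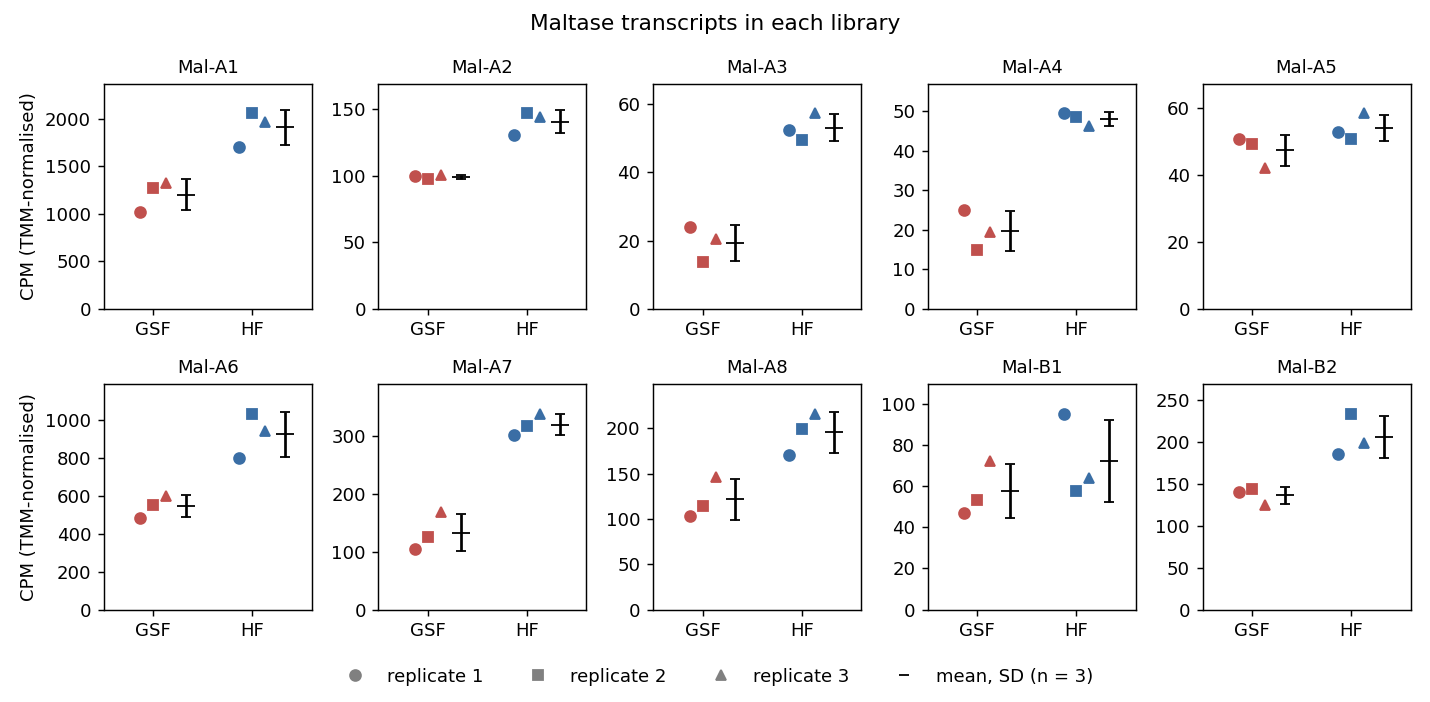
Normalised read counts in CPM (y axis, each panel with its own scale from 0) of the 10 maltase genes in the 3 GSF libraries (red) and the 3 HF libraries (blue), with the marker shape giving the replicate number and the black bar the mean and SD. The diets do not overlap in 9 panels, and in the panel of Mal-B1 the GSF library at 72.0 CPM lies above the HF libraries at 57.7 and 63.9 CPM.

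Mal-A1 and Mal-A6 gave most of the maltase transcripts on both diets. Mal-A1 (FBgn0002570, 8449664 to 8451904 on 2R) had 1015, 1267 and 1326 CPM in the GSF libraries (replicates 1 to 3), against 1704, 2060.2 and 1968 CPM in the HF libraries. The highest GSF library stayed below the lowest HF library. Its level averaged 1203 ± 165 CPM on GSF and 1911 ± 185 CPM on HF (SD, n = 3 each), so that the log2 fold change was -0.67 with a standard error of 0.12 (adjusted p = 0.0232). Mal-A1 passed in none of the 6 fits to 5 libraries (adjusted p between 0.0503 and 0.0700), in which fewer genes of the whole set passed. Its unadjusted p in these edgeR fits lay between 0.00077 and 0.0029, and its log2 fold change between -0.74 and -0.56. Cyp4e1, the cytochrome P450 gene that overlaps its end, was also lower, at 58.5 CPM on GSF and 81.3 CPM on HF (log2 fold change -0.48, adjusted p = 0.0184). The part of the shared reads in either value was not tested.

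Mal-A6 (FBgn0050360, 8465158 to 8467595 on 2R) had 482, 551 and 597 CPM in the GSF libraries, against 797, 1031 and 939 CPM in the HF libraries. As in Mal-A1, replicate 1 was the lowest library on both diets. Its log2 fold change was -0.76 (standard error 0.12, adjusted p = 0.0141), so that GSF-fed flies kept 58.9% of the HF level. Without GSF replicate 1 or GSF replicate 2 the adjusted p was 0.0588 and 0.0544.

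The largest falls were found in Mal-A3, Mal-A4 and Mal-A7. Mal-A3 (FBgn0002571, 8455909 to 8457892 on 2R) had 23.9, 13.7 and 20.3 CPM in the GSF libraries, against 52.5, 49.4 and 57.4 CPM in the HF libraries. The HF libraries were close together and the GSF libraries were spread, with replicate 2 the lowest. Its log2 fold change was -1.46 (standard error 0.19, adjusted p = 0.0101), with a 95% interval from -1.90 to -1.03. Mal-A4 (FBgn0033294, 8458815 to 8460884 on 2R), which starts 922 bp away from Mal-A3 in the other direction, had 25.0, 14.9 and 19.4 CPM in the GSF libraries, against 49.5, 48.6 and 46.2 CPM in the HF libraries. GSF replicate 2 was again the lowest library. The log2 fold change of Mal-A4 was -1.28 (standard error 0.17, adjusted p = 0.0101). Mal-A7 (FBgn0033296, 8468646 to 8471663 on 2R) had 105, 126 and 169 CPM in the GSF libraries, against 303, 318 and 339 CPM in the HF libraries. Here GSF replicate 1 was the lowest, and all GSF libraries were well under the lowest HF library. Its log2 fold change was -1.26 (standard error 0.16, adjusted p = 0.0101). These 3 genes also passed whichever of the 6 libraries was left out, and they were the maltase genes called lower by at least 1 on the log2 scale, as were 0.359% of all genes tested.

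Smaller falls were found in Mal-A2, Mal-A8 and Mal-B2. Mal-A2 (FBgn0002569, 8453627 to 8455782 on 2R) had 99.7, 97.1 and 100.2 CPM in the GSF libraries, against 131, 147 and 144 CPM in the HF libraries. It varied least of the 10 genes on GSF, and its log2 fold change was -0.50 (standard error 0.07, adjusted p = 0.0115). Its adjusted p was 0.0562 without GSF replicate 1 and 0.0502 without GSF replicate 3. Mal-A8 (FBgn0033297, 8471954 to 8473961 on 2R) had 103, 115 and 147 CPM in the GSF libraries, against 171, 199.6 and 216 CPM in the HF libraries. Its libraries were spread on both diets, and its call (log2 fold change -0.69, standard error 0.14, adjusted p = 0.0385) passed in only 1 of the 6 fits to 5 libraries, the one without GSF replicate 3. In the other 5 fits the adjusted p was between 0.0659 and 0.128. Mal-B2 (FBgn0032382, 11849958 to 11852881 on 2L) had 141, 145 and 125 CPM in the GSF libraries, against 186, 234 and 199.1 CPM in the HF libraries. Its log2 fold change was -0.59 (standard error 0.10, adjusted p = 0.0202), and it did not pass when GSF replicate 1, 2 or 3 was left out (adjusted p = 0.0751, 0.0562 and 0.0913).

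Mal-A5 and Mal-B1 did not pass the threshold in any fit. Mal-A5 (FBgn0050359, 8462753 to 8465092 on 2R) had 50.8, 49.2 and 42.2 CPM in the GSF libraries, against 52.8, 50.9 and 58.5 CPM in the HF libraries. The diets did not overlap, but GSF replicate 1 lay just under HF replicate 2, and the log2 fold change was -0.19 (95% interval -0.41 to 0.03, adjusted p = 0.319). Without GSF replicate 3 it was -0.10. The interval of Mal-A5 leaves out the estimate of Mal-A2 (-0.50) but overlaps the interval of Mal-A2 (-0.66 to -0.34). The changes of these 2 genes were not tested against each other. Mal-B1 (FBgn0032381, 11847226 to 11849169 on 2L) had 46.7, 53.4 and 72.0 CPM in the GSF libraries, against 95.1, 57.7 and 63.9 CPM in the HF libraries. HF replicate 1 was far above the other HF libraries, and without it the log2 fold change was -0.08 in place of -0.33 (95% interval -0.84 to 0.17, adjusted p = 0.483). Leaving out GSF replicate 1 gave -0.20, and leaving out GSF replicate 3 gave -0.52. The interval of Mal-B1 covers the change of its neighbour Mal-B2, and the log2 ratio of Mal-B1 to Mal-B2 was -1.28 on GSF and -1.54 on HF, overlapping between the diets (exact permutation p = 0.5).

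**Figure D2:**
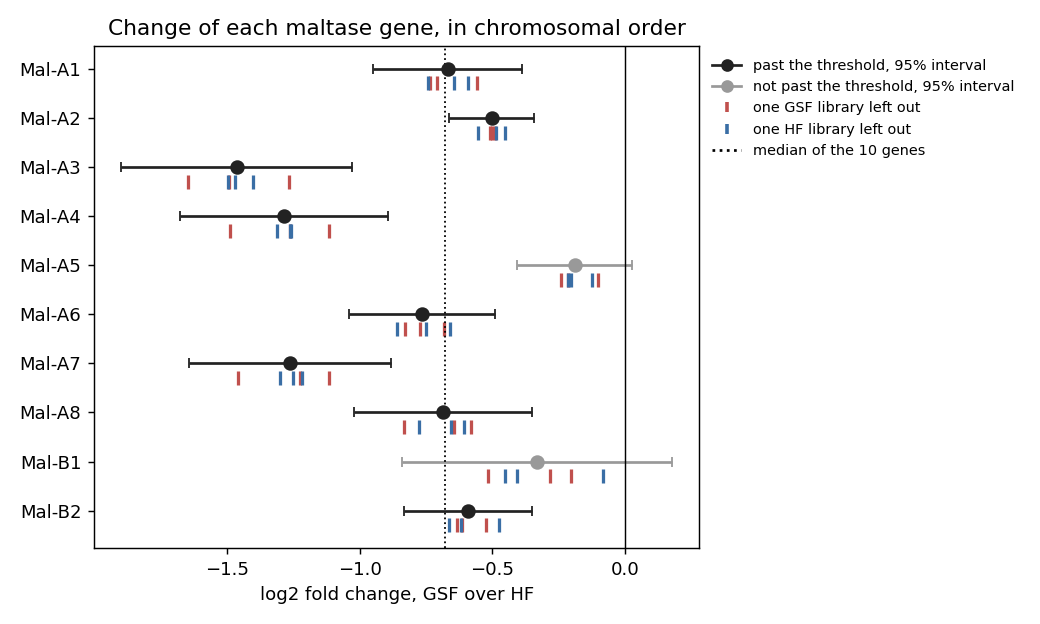
Log2 fold change of each maltase gene (x axis, GSF over HF, negative values lower on GSF) with its 95% interval, black where the gene passed the threshold and grey where it did not. The ticks under each gene are the fits with 1 GSF library (red) or 1 HF library (blue) left out, and the dotted line is the median of -0.68. All ticks lie left of 0, and those of Mal-B1 spread the most, from -0.52 to -0.08.

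Of the 8 members called lower, 3 still passed without GSF replicate 1, 4 without GSF replicate 2, 5 without GSF replicate 3 and 6 whichever HF library was left out. Fewer genes of the whole set passed in these fits as well, down to 65 lower genes without GSF replicate 1, against 420 with all libraries. When the replicate numbers entered the fit as a block, 872 genes (6.52%) were lower and 910 (6.8%) were higher in place of 420 and 267, and the same 8 maltase genes passed.

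To compare levels between members, CPM were divided by exonic length (RPKM, per kilobase of merged exons). On GSF, Mal-A1 was the highest at 659 ± 90.5 RPKM (SD, n = 3), followed by Mal-A6 at 237 ± 25.3 RPKM and Mal-A8 at 67.0 ± 12.4 RPKM. On HF these genes were at 1046 ± 101, 403 ± 51.3 and 108 ± 12.6 RPKM. The lowest genes were Mal-A3 at 10.7 ± 2.89 RPKM and Mal-A4 at 11.1 ± 2.83 RPKM on GSF, and Mal-A5 at 25.7 ± 1.89 RPKM and Mal-A4 at 26.9 ± 0.976 RPKM on HF. From highest to lowest the order on GSF was Mal-A1, Mal-A6, Mal-A8, Mal-B2, Mal-A7, Mal-A2, Mal-B1, Mal-A5, Mal-A4 and Mal-A3. On HF it was Mal-A1, Mal-A6, Mal-A7, Mal-A8, Mal-B2, Mal-A2, Mal-B1, Mal-A3, Mal-A4 and Mal-A5. Neighbours in the order overlapped in their ranges from Mal-A8 down to Mal-A2 and between Mal-A4 and Mal-A3 on GSF, and between Mal-A7 and Mal-A8, Mal-A8 and Mal-B2, and from Mal-B1 down to Mal-A5 on HF. Mal-A5 moved up in the order: it lay above Mal-A3 in 3 of 3 GSF libraries and in 0 of 3 HF libraries, and above Mal-A4 in 3 GSF libraries and 1 HF library.

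**Figure D3:**
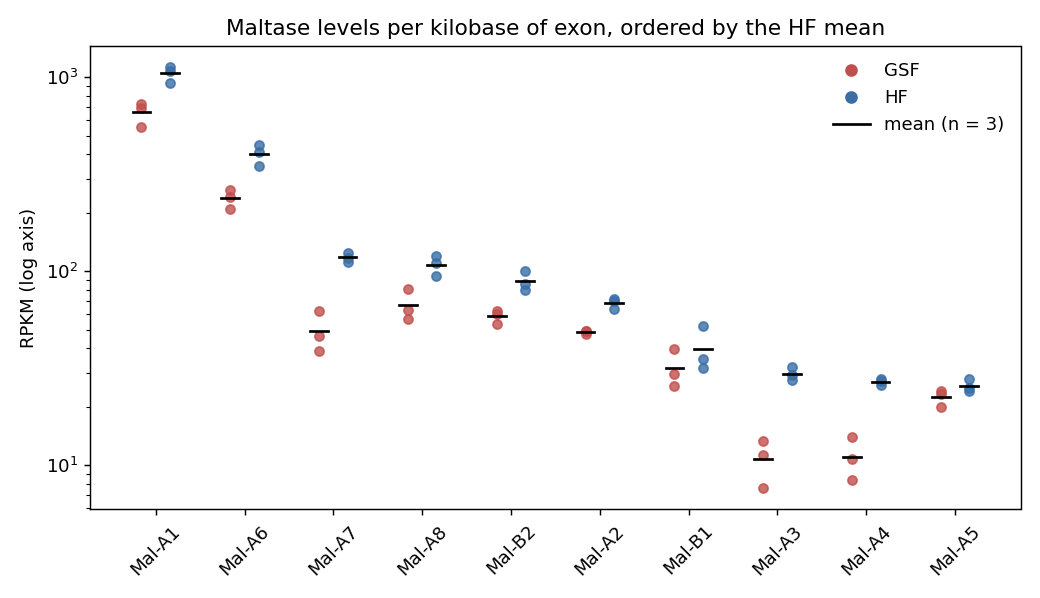
Levels of the 10 maltase genes in RPKM (y axis, log scale) in each GSF library (red, left of each pair) and HF library (blue), ordered by the HF mean, with black lines for the means of 3 libraries. Mal-A1 spans 556 to 726 RPKM on GSF and 933 to 1128 RPKM on HF, and on GSF Mal-A3 and Mal-A4 drop below Mal-A5.

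The summed maltase level was 1048, 1223 and 1315 RPKM in the GSF libraries, against 1766, 2089 and 2009 RPKM in the HF libraries. No GSF library reached the lowest HF library, and the mean on GSF was 61.2% of that on HF (log2 ratio -0.71). An exact permutation test of 3 libraries against 3, two-sided, gave p = 0.1, the smallest p this design allows. In raw counts the 10 genes together took 0.238% of all counts on GSF and 0.391% on HF. Mal-A1 and Mal-A6 made up 74.9% ± 1.68 of the summed RPKM on GSF and 74.1% ± 1.49 on HF, a difference within the spread of the libraries (exact permutation p = 0.7).

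The shares of the members in the summed RPKM were compared as well, with the same exact permutation test. Mal-A7 held 3.68%, 3.80% and 4.73% of the summed RPKM in the GSF libraries, against 6.31%, 5.60% and 6.22% in the HF libraries. Mal-A3 held 0.918% ± 0.327 on GSF and 1.52% ± 0.179 on HF. The shares of Mal-A2 and Mal-A5 were larger on GSF, at 4.11% ± 0.497 and 1.92% ± 0.390 on GSF, against 3.53% ± 0.0904 and 1.32% ± 0.143 on HF. In these 4 genes the shares did not overlap between the diets. Each had an exact permutation p of 0.1, the smallest this test allows, and an adjusted p of 0.25 over the 10 genes. No share could pass the threshold with this test, so the lack of a call decides nothing about the shares. The shares of the other 6 genes overlapped between the diets.

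Along the Mal-A cluster the strongest falls were in the neighbours Mal-A3 and Mal-A4 and in Mal-A7, and the weakest was in Mal-A5, between Mal-A4 and Mal-A6. The log2 ratio of Mal-A4 to Mal-A5 was -1.29 on GSF and -0.17 on HF, a difference of -1.12 that did not overlap between the libraries of the diets (exact permutation p = 0.1, adjusted p = 0.16 over 8 neighbouring pairs). That of Mal-A5 to Mal-A6, 65 bp apart on the same strand, was -3.52 on GSF and -4.09 on HF (difference 0.57, same p). The ratio of Mal-A7 to Mal-A8, whose starts are 290 bp apart, was 0.12 on GSF and 0.71 on HF (difference -0.59, same p). The ratios of Mal-A2 to Mal-A3 (difference 0.99) and of Mal-A6 to Mal-A7 (difference 0.53) did not overlap between the diets either, with the same p. Those of Mal-A1 to Mal-A2 (difference -0.17) and of Mal-A3 to Mal-A4 (difference -0.18) overlapped. Each of these 2 had an exact permutation p of 0.2 and an adjusted p of 0.229. The differences restate the fold changes of the 2 genes of a pair.

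**Figure D4:**
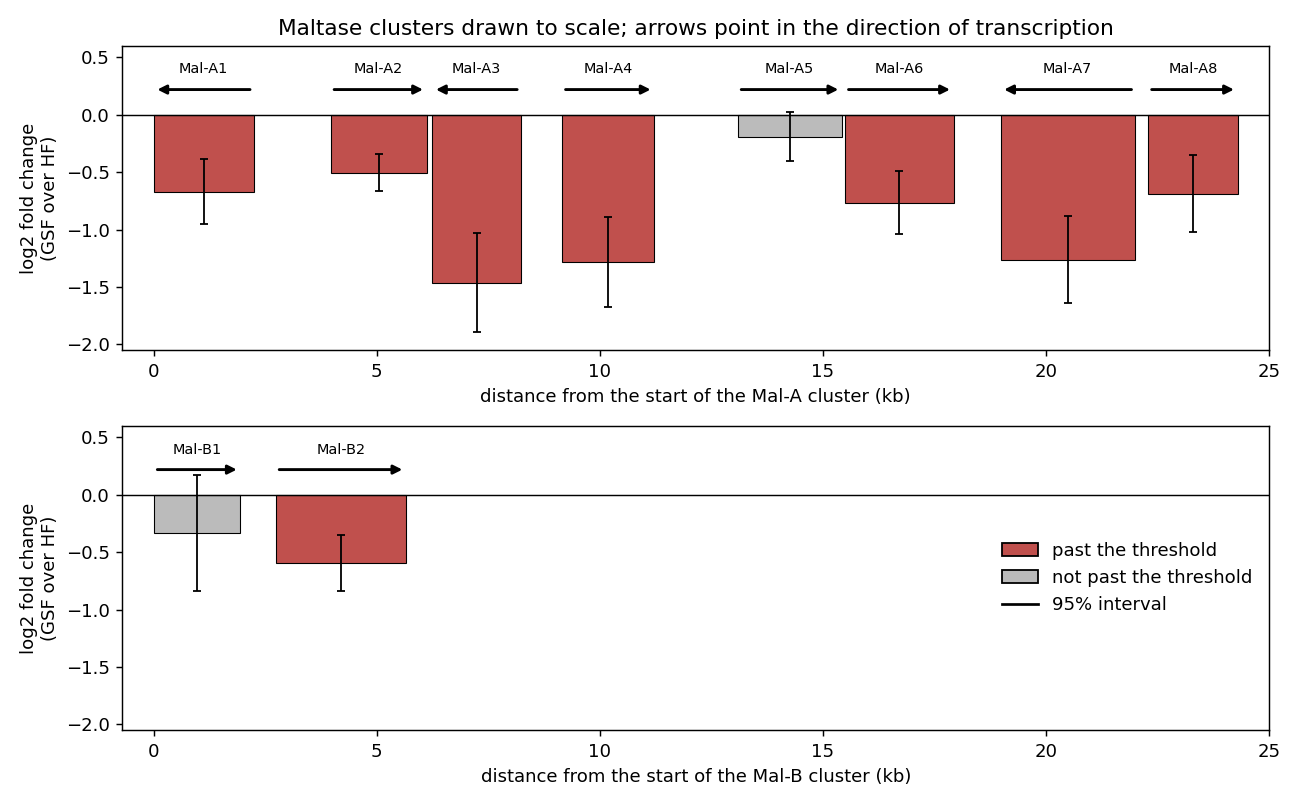
The Mal-A cluster (upper panel) and the Mal-B cluster (lower panel) drawn to scale, with the distance from the start of each cluster in kilobases on the x axis and arrows in the direction of transcription. Each bar spans a gene and shows its log2 fold change (GSF over HF) with its 95% interval, red where the gene passed the threshold and grey where it did not. Mal-A5, at -0.19, stands between Mal-A4 at -1.28 and Mal-A6 at -0.76.

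Of the 8 tested genes that overlap the ends of the Mal-A cluster or are among the 5 nearest on each side, 1 was called lower (Cyp4e1, which shares exon sequence with Mal-A1) and 0 were higher in edgeR's quasi-likelihood test, where 2 were lower and 1 was higher at an unadjusted p under 0.05. DESeq2 called 2 lower and 1 higher, and the likelihood ratio and exact tests of edgeR each called 2 lower. Their median log2 fold change was 0.06, against -0.73 for the Mal-A genes. Around the Mal-B genes 0 of 7 tested genes passed in any of these tests, with a median of -0.04. Before adjustment 3 of the 7 were lower at a p under 0.05, as were 9.9% of all genes tested. Among these 3 were CG42486 and CG14933, which overlap each other and had log2 fold changes of -0.216 and -0.218. With the replicate block 2 of the 7, CG42486 and CG14933, were called lower (adjusted p = 0.0449 and 0.0445).

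The libraries of a diet did not rank the members alike. On GSF, replicate 1 was the lowest library for 5 genes (Mal-A1, Mal-A6, Mal-A7, Mal-A8 and Mal-B1) and the highest for Mal-A3, Mal-A4 and Mal-A5. On HF, replicate 1 was the lowest for 6 genes and the highest for Mal-A4 and Mal-B1. After the diet means were removed, the deviations of Mal-A1 and Mal-A6 had a Pearson r of 0.95 over the 6 libraries, those of Mal-A7 and Mal-A8 of 0.93 and those of Mal-A3 and Mal-A4 of 0.90, the 3 highest of the 45 pairs. The lowest was -0.85, between Mal-B1 and Mal-B2. These values are a description of 6 libraries that share their depth and scaling between genes, and with the diet means removed they hold fewer than 6 free values.

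**Figure D5:**
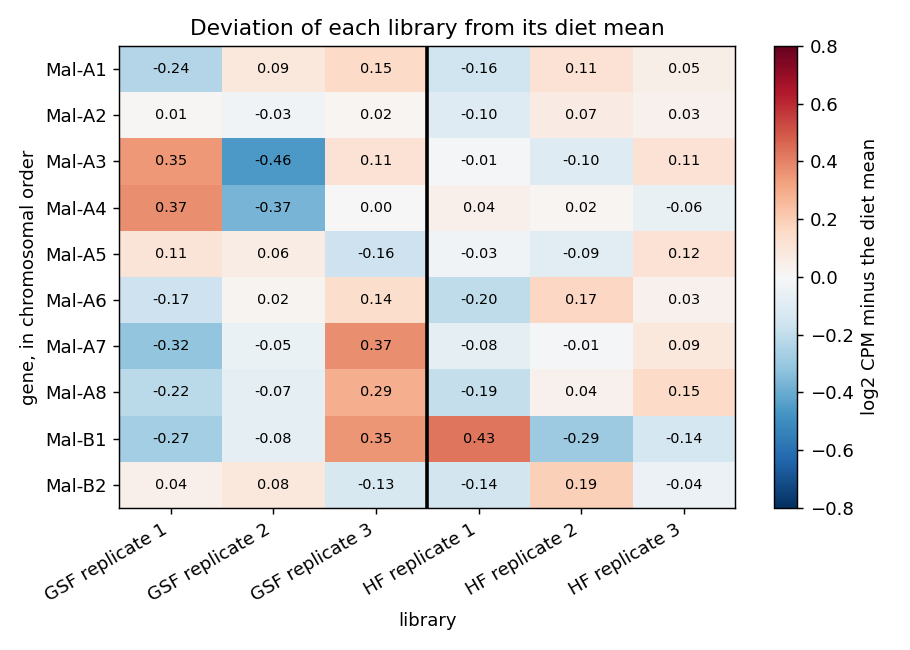
Deviation of each library from the mean of its diet (log2 CPM, red above and blue below, value printed in each cell) for the 10 genes in chromosomal order, with the GSF libraries left of the line and the HF libraries right of it. Mal-A3 and Mal-A4 share the high GSF replicate 1 (0.35 and 0.37) and the low GSF replicate 2 (-0.46 and -0.37), while Mal-A7 and Mal-A8 are lowest in GSF replicate 1 (-0.32 and -0.22).

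The genes outside the clusters whose levels followed the members most closely were EloB, Cat, CG8952, wal and CG30503. Likeness was the Pearson r, over the 6 libraries, with the mean of the standardised log2 CPM of the 10 members, and it lay between 0.996 and 0.999 for these 5. Since the member mean separates the diets, choosing by this r fixed that these genes are lower on GSF. Their log2 fold changes were between -0.46 and -0.30. Cat, which encodes catalase, had 695 ± 6.70 CPM on GSF and 942 ± 28.0 CPM on HF (SD, n = 3 each). Among the members, r with the same mean ran from 0.50 in Mal-B1 and 0.64 in Mal-A5 to 0.99 in Mal-A2. Each member is itself part of that mean, which raises its r, so these values cannot be set against those of the genes outside.

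Genes for other enzymes that split starch or sugars also had lower estimates, and the tissue in which each fell was not measured. Of the amylase genes Amy-p and Amy-d, the amylase-related gene Amyrel, the alpha-glucosidase gene tobi and the trehalase gene Treh, 2 of 5 were called lower (tobi, log2 fold change -1.26, adjusted p = 0.0315, and Amy-p, -1.16, adjusted p = 0.0201) and all 5 were lower at an unadjusted p under 0.05, as were 9.9% of all genes tested. Amyrel lay close to the filter of 1 CPM, with means of 0.687 CPM on GSF and 1.711 CPM on HF. It passed this filter only with the help of its HF libraries, and its libraries overlapped between the diets. Its unadjusted p is therefore weak evidence of a fall. The block fit, DESeq2 and edgeR's other tests each called 3 of the 5 genes lower. Amy-p and Amy-d are near-identical copies, so reads could have been split between them. Of 9 genes in a list of sugar transporters and their relatives, 1 was called lower, Tret1-2 (log2 fold change -0.55, adjusted p = 0.0232), and 0 higher by any of the tests or before adjustment. Before adjustment 4 transporter genes were lower at a p under 0.05, DESeq2 called 3 lower, edgeR's other tests called 2, and the block fit called 3. Of 19 tested genes for secreted trypsins and Jonah proteases of the gut, many of them close copies of each other, 4 were called lower (Jon25Biii, deltaTry, gammaTry and Jon65Aiv) and 0 higher, with a median of -0.95. Before adjustment 10 of these were lower and 1 was higher at a p under 0.05, with the block 10 were called lower, and the other tests each called 5 lower and 0 higher. Of 11 genes for sugar sensing, among them the sugar-responsive factor gene Mondo, the repressor gene sug and the activin-like ligand gene daw, 0 passed in edgeR's quasi-likelihood test, with a median of 0.08. With p under 0.05 before adjustment, 1 of them was lower (Mondo, -0.33) and 2 were higher (daw, 0.34, and Smox, 0.26). DESeq2 called 1 lower and 1 higher, edgeR's likelihood ratio and exact tests called 1 lower, and with the replicate block Mondo was called lower and daw and Smox higher.

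Markers of midgut enterocytes, the cells that secrete digestive enzymes, did not fall with the maltases. Of 8 such genes (Myo31DF, mex1, nub, GATAe, mesh, Ssk, Tsp2A and hoka), all 8 had a positive log2 fold change, with a median of 0.30. For all genes tested, 47.7% had a negative log2 fold change. Among the 8 markers, 1 (mesh, which encodes a protein of the junctions between gut cells) was called higher. None was called lower by any of the tests or had a lower level at an unadjusted p under 0.05, DESeq2 called 3 higher, and the fit with the replicate block called 5 higher. Their summed level was between 496 and 651 RPKM in the GSF libraries and between 395 and 474 RPKM in the HF libraries. In CPM, mesh was the highest of these genes, at 567 on GSF and 396 on HF. The largest log2 fold changes were 0.52 in mesh, 0.50 in Ssk and 0.43 in Tsp2A. The smallest were 0.03 in GATAe, 0.05 in hoka and 0.12 in nub, so the rise was uneven over the list. The number of enterocytes was not tested. The study was concerned with cell junction genes in these flies, and mesh and Ssk are genes it measured, so the direction of this list is not independent evidence. Of the enteroendocrine markers 0 of 9 passed in the same test (1 lower and 4 higher before adjustment, 1 lower and 2 higher with DESeq2, and 1 each way with the block), with summed levels of 80.5 to 92.9 RPKM on GSF and 84.6 to 99.3 RPKM on HF.

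Among markers of other tissues, those of the fat body were lower and those of neurons higher on GSF in their summed levels. The 4 fat body markers, of which 2 had lower estimates, summed to between 311 and 391 RPKM in the GSF libraries and between 491 and 606 RPKM in the HF libraries, and 1 of them, the fatty acid synthase gene FASN1, was called lower (log2 fold change -0.57, adjusted p = 0.0141). The larval serum protein gene Lsp2 had the largest difference of the 4 (log2 fold change -3.07, adjusted p = 0.0765) and did not pass, though it did with the block (adjusted p = 0.00526). The lipoprotein genes apolpp and Apoltp had log2 fold changes of 0.30 (adjusted p = 0.226) and 0.00 (adjusted p = 0.993). At an unadjusted p under 0.05, 2 of the 4 were lower and 1 was higher, and DESeq2 and the block fit each called 2 lower. The 4 neuronal markers summed to between 48.8 and 57.8 RPKM on GSF and between 44.1 and 48.4 RPKM on HF, and 0 of them passed (3 higher before adjustment, 0 by DESeq2, 2 higher with the block). Of 3 markers of midgut progenitors, only 1, Sox21a, matched a counted gene, and esg and Dl did not. Sox21a had 2.86 to 3.49 RPKM on GSF and 2.21 to 2.69 RPKM on HF and did not pass. The part of these tissues in the maltase values was not tested. Summed levels of the markers of Malpighian tubules, muscle, testis and accessory gland overlapped between the diets, with 0 of 15 genes called by the quasi-likelihood test, 1 lower at an unadjusted p under 0.05, and 1 lower with DESeq2 and with the block. Annotated ribosomal RNA genes took 18.3% to 21.9% of the counts on GSF and 15.8% to 16.4% on HF, and without them in the fit the same test called 8 maltase genes lower.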

How the data were processed

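RNA-seq was done on whole male flies, 3 libraries on GSF and 3 on HF. The authors trimmed the paired-end reads with Trimmomatic, aligned them with HISAT2 (version 2.1.0) to BDGP6, converted them with SAMtools (version 1.8) and counted them with Rsubread. The deposited values are raw counts per FlyBase gene, without normalization. The authors also deposited an edgeR table with a log2 fold change, mean level, p-value and FDR per gene, of which only the symbols were used.

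The fit used edgeR 4.0.16 in R 4.3.3, TMM scaling, the 13373 genes that reached 1 CPM in 3 or more libraries, and the two-sided quasi-likelihood test with Benjamini-Hochberg adjustment. DESeq2 1.42.0 was an alternative. The methods of the study name edgeR, the filter and the thresholds, not the test. The standard error of a log2 fold change was its size over the root of its F statistic. Log2 CPM used a prior count of 2. RPKM used merged exons of Ensembl's BDGP6 annotation. In a library, 3 counts correspond to between 0.0451 and 0.0579 CPM. No sequences were used here.

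Members and lists were chosen with earlier results of these data known. All 10 members are named, with values for at most 4 genes per list, those called first, and the 5 genes most alike. List genes that were not called are named after their values were seen. Of 90 list entries, 86 matched a gene of the files. Libraries with the same replicate number deviated together (correlations 0.188, 0.247 and 0.476 across genes, which are not independent). With different numbers the correlations lay between -0.309 and 0.115. Over the 10 maltase genes the same-number correlations were 0.012, 0.384 and -0.008, against -0.361 to 0.282 with different numbers. The labels do not say that libraries of a number belong together. The block is therefore an alternative fit that rests on the counts alone, not a known pairing.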

Additional observations from a re-analysis of the deposited data

How the results depend on the processing

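The 8 maltase calls, and the lack of a call for Mal-A5 and Mal-B1, were the same under each other scaling, test and filter, with the replicate block, and without ribosomal RNA genes (added after seeing the data). The 1 exception was the fit without the 50 genes with the highest counts, where Mal-A1 was left out and 7 passed. The number of genes called higher was 910 with the replicate block, 604 with DESeq2, 470 with edgeR's likelihood ratio test and 469 with its exact test, against 267, and that called lower was 824 with DESeq2 and 872 with the block, against 420. The block changed no maltase call. With single libraries left out, the maltase genes called lower numbered from 3 to 6, all genes called lower from 65 to 293 and higher from 48 to 224. The maltase median then lay between -0.78 and -0.60, Mal-A1 between -0.74 and -0.56, Mal-A2 between -0.55 and -0.45, Mal-A6 between -0.86 and -0.66, Mal-A8 between -0.83 and -0.58, Mal-B2 between -0.66 and -0.47, and the summed level between -0.78 and -0.62, all on the log2 scale. The difference in the share of Mal-A8, 0.07 percentage points, lay between -0.22 and 0.28 and changed sign without GSF replicate 3 (-0.22), HF replicate 1 (-0.02) or HF replicate 2 (-0.05). The cause was not tested. With 3 libraries per diet an exact test of a single value cannot pass 0.05.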
